A study of Mus musculus with 12 samples.

Results

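The genes described are 5 mouse chemokine genes whose products draw T cells: Cxcl9, Cxcl10, Cxcl11, Cxcl16 and Ccl5. They were chosen by symbol from the deposited count table, where each matched 1 of 57180 rows, and all 5 passed the filter on low counts that left 14362 genes for testing. RNA was sequenced from 2 mouse tumour lines, KPC, labelled as pancreatic ductal adenocarcinoma cells, and MB49, labelled as bladder cancer cells. The 4 groups of 3 libraries each were KPC given 8 Gy of radiation and cultured for 48 h, KPC control, MB49 given 8 Gy and cultured for 48 h, and MB49 control. All 12 libraries carry the genotype label WT, all cells were grown in DMEM with serum, and no other agent is named. How long the controls were cultured is not given; dose and any unequal culture time cannot be told apart. Senescent cells are named in the treatment text beside ordinary ones, but the label of a library gives only its treatment, control or 8 Gy. Each tumour type is represented by 1 line. The labels do not describe the 3 libraries of a group as independent cultures, and p-values here cover only the scatter among those libraries, which may be technical. The questions are how the chemokine genes stood after radiation in each line and whether the lines differed in this. The series title concerns vesicles of senescent tumour cells, T cells and radiotherapy.

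Chemokines are small secreted proteins that bind G protein coupled receptors and guide leukocytes along a gradient. CXCL9, CXCL10 and CXCL11 share the receptor CXCR3, which activated T cells and natural killer cells carry, and their genes are classical targets of interferon. CXCL16 is made as a transmembrane protein that can be shed, and its receptor CXCR6 sits on activated and resident T cells. CCL5 draws T cells, monocytes and other leukocytes, and its gene responds to interferon regulatory factors and to NF-kB. In tumours these chemokines are known for bringing in effector T cells, and they are made by tumour cells as well as by macrophages and dendritic cells.

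The 12 libraries held 19006015 to 26337950 counts. KPC control replicate 1 stood apart by its 18S ribosomal RNA gene Rn18s-rs5, with 5.11% of its counts. MB49 control replicate 3 stood apart by 123 genes that had at least 10 counts there and 0 in the other 2 controls of the line, against 2 to 16 such genes in each other library. For the 5 chemokine genes, results that change without either of them are given with and without it. Values of other genes were not recomputed without these libraries. The labelled tissues were checked against marker genes. KPC controls held 76.7 CPM of the pancreatic factor gene Pdx1, which stood at 17.3 CPM in MB49 controls, and 80.7 CPM of the ductal keratin gene Krt19, but 0.187 CPM of the epithelial gene Epcam. In MB49 controls Epcam averaged 1.24 CPM, with libraries from 0 to 3.73 CPM. The simple epithelial keratin gene Krt8 averaged 363 CPM in untreated KPC and 1205 CPM in untreated MB49, and Krt18 averaged 355 and 1315 CPM. The epithelial cadherin gene Cdh1 went the other way, with 39.0 CPM in untreated KPC and 0.945 CPM in untreated MB49. Its MB49 control libraries ran from 0.0727 to 2.69 CPM, the highest being replicate 3. The urothelial markers did not set MB49 apart: Gata3 averaged 16.3 CPM in untreated KPC and 14.2 CPM in untreated MB49, Pparg averaged 11.2 CPM in untreated KPC and 0.0723 CPM in untreated MB49, and the uroplakin genes Upk1b, Upk2 and Upk3a, which define differentiated urothelium, were at 0 counts in MB49 controls. Of 21 markers of leukocytes, 11 were at 0 counts in irradiated KPC cells and 8 in irradiated MB49 cells, and the pan-leukocyte gene Ptprc had 0 and 1 counts. Their summed level was 99.8 to 107 CPM in KPC 8 Gy libraries and 39.9 to 41.1 CPM in KPC control libraries, and 104 to 123 CPM in MB49 8 Gy libraries and 237 to 257 CPM in MB49 control libraries. Most of these sums came from Cd14, a receptor gene for bacterial lipid (96.4 CPM in KPC 8 Gy), and Flt3, a growth factor receptor gene (187 CPM in MB49 control). Of the 4 macrophage and monocyte markers, Cd14 rose in KPC (1.43 ± 0.11, adjusted p = 3.97e-09) and so did Csf1r, with 98 counts after 8 Gy against 8 in controls (3.86 ± 0.69, adjusted p = 0.000103). In MB49 neither Cd14 nor Csf1r passed (0.06 ± 0.11 and -0.42 ± 1.11, adjusted p = 0.648 and 0.758). Lyz2 rose in MB49, with 40 counts after 8 Gy against 14 in controls (1.88 ± 0.50, adjusted p = 0.00332), and so did the neutrophil gene Ly6g, with 257 against 33 (3.32 ± 0.44, adjusted p = 6.75e-06). In KPC neither Lyz2 nor Ly6g passed (adjusted p = 0.785 and 0.0849). Flt3 fell in both lines (-1.61 ± 0.20 in KPC and -2.03 ± 0.12 in MB49, adjusted p = 1.76e-06 and 1.63e-10). The B cell gene Cd79a rose in both (1.06 ± 0.26 and 1.44 ± 0.54, adjusted p = 0.00173 and 0.042). Adgre1 had 0 counts in KPC, 8 counts in MB49 8 Gy and 2 in MB49 control. The part of these markers in the chemokine results was not tested. In such bulk samples, fewer cells of a kind and less RNA per cell cannot be told apart.

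Cxcl10, the CXCR3 ligand gene that responds to all types of interferon, was the most abundant of the 5 per length of transcript in both irradiated lines. Levels are given in CPM, the depth-scaled count unit, after TMM scaling. Changes are log2 fold changes ± SE from the edgeR quasi-likelihood fit, and p-values are Benjamini-Hochberg adjusted over all 14362 genes, with a gene called at an adjusted p under 0.05. In KPC 8 Gy libraries Cxcl10 stood at 1089, 1121 and 1133 CPM, against 24.9, 18.5 and 18.5 CPM in KPC control libraries. The 3 irradiated libraries lay within a narrow band far above the controls, and the change was 5.76 ± 0.15 (adjusted p = 7.34e-15). In MB49 8 Gy libraries it stood at 402.3, 426.1 and 402.1 CPM, against 23.6, 24.2 and 21.5 CPM in MB49 control libraries. These groups did not overlap either, with a change of 4.15 ± 0.14 (adjusted p = 2.88e-13).

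The rise of Cxcl10 was larger in KPC than in MB49 by 1.61 ± 0.18 (adjusted p = 2.85e-06, over all genes). Both lines began at nearly the same level: untreated KPC averaged 20.6 ± 3.71 CPM and untreated MB49 23.1 ± 1.44 CPM (SD, n = 3 each). That baseline difference of -0.16 ± 0.13 did not pass the test (adjusted p = 0.275), with a 95% interval of -0.44 to 0.11, and the libraries overlapped. It was called without KPC control replicate 1, the library with much 18S RNA and the highest Cxcl10 of its group, at -0.36 (adjusted p = 0.0123). After 8 Gy the level was 1114 ± 22.6 CPM in KPC and 410 ± 13.8 CPM in MB49 (SD, n = 3 each), which differ by 1.44 ± 0.13 (KPC minus MB49, adjusted p = 2.25e-08).

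Cxcl9, the CXCR3 ligand gene that depends most on interferon gamma, changed over the widest range. In KPC 8 Gy libraries it stood at 1906, 2243 and 1815 CPM, against 0.374, 0.374 and 0.245 CPM in KPC control libraries. The control levels rest on 9, 10 and 6 counts, and the change of 12.52 ± 0.30 (adjusted p = 2.79e-14) took rank 4 among all fitted rises. In MB49 8 Gy libraries it stood at 131, 130 and 206 CPM, and each MB49 control library had 0 counts. Replicate 3 of the irradiated MB49 libraries lay above the other 2. With 9376 counts over the irradiated group and 0 over the controls, Cxcl9 was at least 4090-fold higher after 8 Gy in MB49 (against a floor of 3 counts over the control group), and the test was passed at adjusted p = 4.78e-13. In KPC the counts were 121863 after 8 Gy and 25 in controls, 6040-fold after scaling, with 95% counting limits of 4090 and 9340.

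The responses of Cxcl9 could not be ranked between the lines, because the MB49 controls hold no count to divide by. The test of the difference did not pass (adjusted p = 0.151). The levels themselves differed: irradiated KPC cells held 1988 ± 225 CPM and irradiated MB49 cells 155 ± 43.5 CPM (SD, n = 3 each), a difference of 3.68 ± 0.19 (adjusted p = 1.03e-10). In controls the 25 counts of KPC against 0 in MB49 put Cxcl9 at least 8.62-fold higher in KPC (adjusted p = 0.00016).

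Cxcl11, the CXCR3 ligand gene whose product also binds the scavenger receptor ACKR3, was the scarcest of the trio in both irradiated lines. It stood at 5.81, 8.07 and 7.03 CPM in KPC 8 Gy libraries, against 0.541, 0.449 and 0.449 CPM in KPC control libraries. The change was 3.85 ± 0.28 (adjusted p = 2.88e-09), with no overlap. In MB49 8 Gy libraries it stood at 6.79, 6.85 and 10.0 CPM, against 0.182, 0.0733 and 0.26 CPM in MB49 control libraries. The control values rest on 5, 2 and 6 counts, the groups did not overlap, and the change was 5.51 ± 0.33 (adjusted p = 1.70e-10).

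For Cxcl11 the rise was smaller in KPC than in MB49, by -1.66 ± 0.48 (KPC minus MB49, adjusted p = 0.00981). The irradiated lines overlapped, at 6.97 ± 1.13 CPM in KPC and 7.89 ± 1.85 CPM in MB49 (SD, n = 3 each). Their difference of -0.18 ± 0.22 did not pass the test (adjusted p = 0.488), with a 95% interval of -0.64 to 0.28. What differed was the baseline, 36 counts over the KPC controls against 13 over the MB49 controls, a difference of 1.48 ± 0.43 (adjusted p = 0.00520). Without MB49 control replicate 3, which held 6 of the 13 counts, the difference of responses was -2.04 (adjusted p = 0.00508), and without MB49 control replicate 2, which held 2 of them, it was -1.29 (adjusted p = 0.0427). These are the extremes over the 12 fits that each left out 1 library, and all 12 passed.

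**Figure D1:**
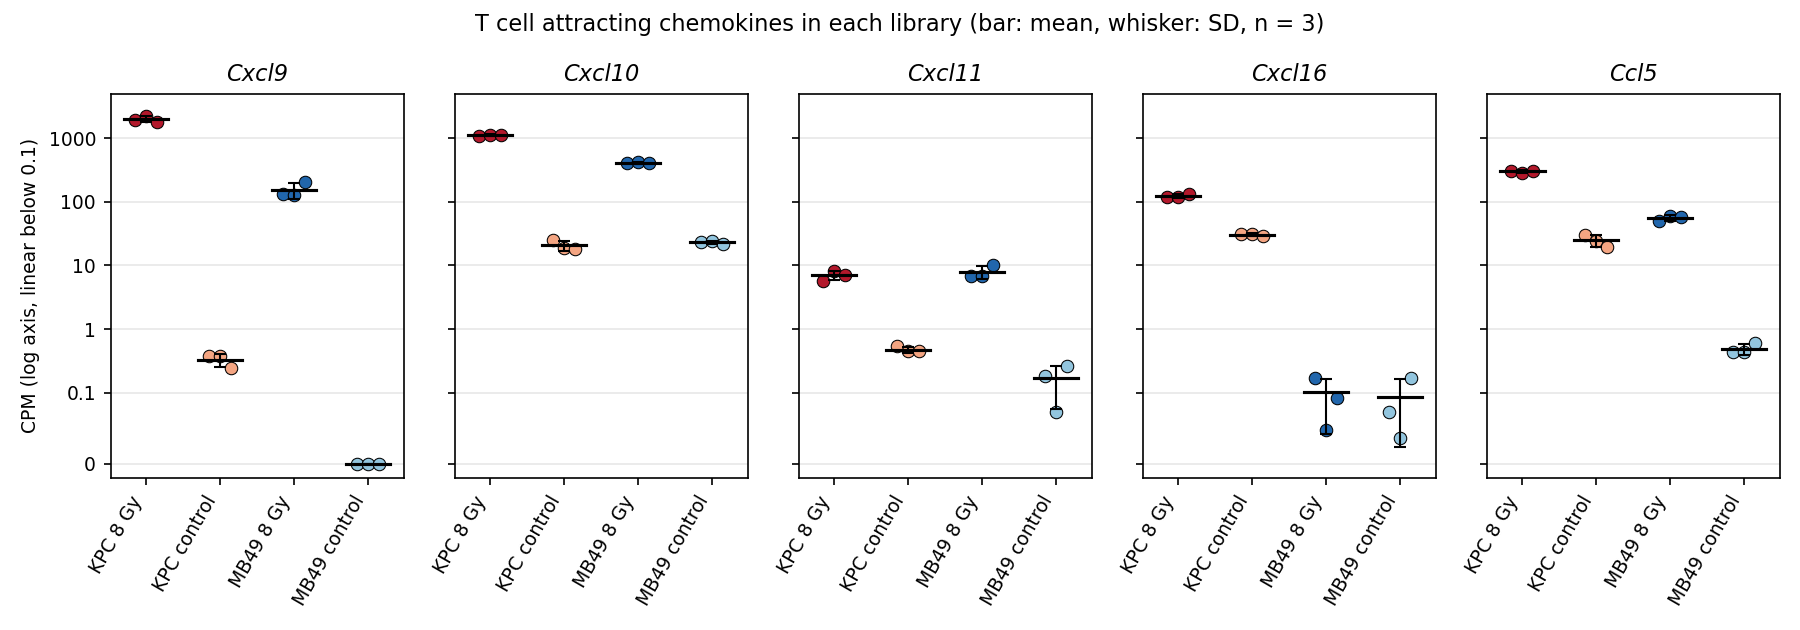
CPM of each of the 5 chemokine genes in the 12 libraries, on a log axis that is linear below 0.1, with groups of 3 libraries from left to right KPC 8 Gy, KPC control, MB49 8 Gy and MB49 control. Points are libraries, bars the mean and whiskers the SD. Every irradiated KPC library lies above every KPC control for all 5 genes, the same holds in MB49 for all but Cxcl16, and Cxcl9 is at 0 in the 3 MB49 controls.

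Cxcl16, the gene of the membrane-bound CXCR6 ligand, was found almost entirely in KPC. It stood at 120, 117 and 132 CPM in KPC 8 Gy libraries, against 31.7, 30.7 and 28.8 CPM in KPC control libraries. The groups did not overlap, and the change was 2.02 ± 0.13 (adjusted p = 7.65e-10), the smallest rise of the 5 genes in KPC. In MB49 the gene was near the limit of detection, with 3, 1 and 2 counts in the 8 Gy libraries and 2, 1 and 4 counts in the control libraries. A change of Cxcl16 in MB49 was not detectable at this depth: the fitted value was 0.15 ± 0.62 (adjusted p = 0.868), with a 95% interval of -1.16 to 1.47, and the scaled counts gave a ratio of 1.12, with 95% counting limits of 0.311 and 3.89.

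Cxcl16 was higher in KPC than in MB49 with and without radiation. The difference was 10.18 ± 0.25 after 8 Gy (7433 counts in KPC against 6 in MB49, adjusted p = 2.54e-15) and 8.31 ± 0.25 in controls (2289 counts in KPC against 7 in MB49, adjusted p = 1.17e-14). The difference of responses, 1.86 ± 0.68, did not pass the test (adjusted p = 0.0547). It was called without KPC control replicate 1 (2.00, adjusted p = 0.0409), without MB49 control replicate 2 (2.25, adjusted p = 0.0293) or without MB49 8 Gy replicate 1 (2.34, adjusted p = 0.034), and it was 1.20 (adjusted p = 0.407) without MB49 control replicate 3. In MB49 the fit rests on 1 to 4 counts per library. The estimated counts of Cxcl16 were not whole numbers in KPC, and in the GENCODE M21 annotation the gene overlaps Zmynd15 on the opposite strand. Zmynd15 had 239 counts after 8 Gy and 193 counts in controls in KPC, against the 7433 and 2289 counts of Cxcl16, and 35 counts after 8 Gy and 15 in controls in MB49. It too was called higher after 8 Gy in KPC (0.64 ± 0.26, adjusted p = 0.0399), and it was also called in MB49 (1.58 ± 0.41, adjusted p = 0.00282). Like Cxcl16 it was higher in KPC than in MB49 after 8 Gy (2.76 ± 0.31, adjusted p = 5.24e-07) and in controls (3.69 ± 0.35, adjusted p = 5.95e-08).

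Ccl5, the CC chemokine gene among the 5, rose most from its own baseline in MB49 among the 4 genes with counts in all groups. It stood at 49.0, 60.3 and 58.5 CPM in MB49 8 Gy libraries, against 0.436, 0.44 and 0.607 CPM in MB49 control libraries. The controls rest on 12, 12 and 14 counts, and the change was 6.82 ± 0.22 (adjusted p = 1.17e-13). In KPC 8 Gy libraries it stood at 305.2, 286.2 and 308.6 CPM, against 30.5, 24.6 and 19.5 CPM in KPC control libraries. The groups did not overlap in either line, and the change in KPC was 3.59 ± 0.16 (adjusted p = 3.19e-12).

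The rise of Ccl5 was smaller in KPC than in MB49 by -3.23 ± 0.27 (adjusted p = 1.09e-07), the largest difference of responses among the 5 genes in absolute size that passed the test. Yet the level was higher in KPC both after 8 Gy, by 2.42 ± 0.15 (300 ± 12.1 CPM in KPC and 55.9 ± 6.04 CPM in MB49, adjusted p = 1.66e-10), and in controls, by 5.65 ± 0.22 (24.8 ± 5.51 CPM in KPC and 0.494 ± 0.0979 CPM in MB49, adjusted p = 2.67e-13; SD, n = 3 each). On the log2 scale the lines thus lay closer together after radiation than before it. In CPM the rise was larger in KPC, at 275 CPM against 55.4 CPM in MB49, and the lines lay further apart. Irradiated MB49 cells held more Ccl5 than KPC controls in every library, a comparison that was not tested.

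**Figure D2:**
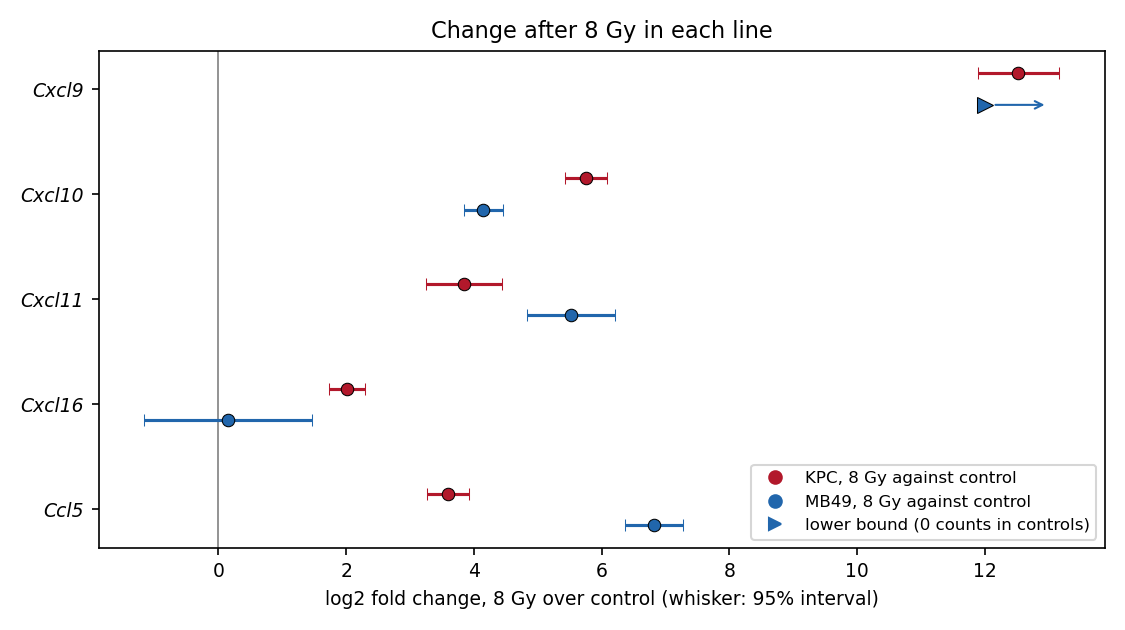
Log2 fold change of each chemokine gene, 8 Gy over control, in KPC (upper point of each pair) and MB49 (lower point), with 95% intervals from the edgeR fit. The arrow for Cxcl9 in MB49 starts at the lower bound of 4090-fold, since its controls hold 0 counts. Cxcl10 lies further right in KPC, while Cxcl11 and Ccl5 lie further right in MB49, and the interval of Cxcl16 in MB49 spans 0.

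Counted together, 5 of the 5 genes rose in KPC after 8 Gy, where 31.3% of all genes tested were called higher and 34.7% had their 3 irradiated libraries all above the 3 controls. In MB49, 4 of the 5 rose, where 35.3% of all genes were called higher and 35.1% had no overlap in that direction. The median change of the 5 was 3.85 in KPC and 5.51 in MB49, beside medians over all genes of -0.01 and 0.04. For the difference of responses, 1 of the 5 was called higher in KPC, against 20.9% of all genes, and 2 were called lower, against 22.0%. Between irradiated lines, 4 of the 5 were higher in KPC (31.0% of all genes), and between controls 4 of the 5 were higher in KPC (33.0% of all genes). In both of these comparisons those 4 also had their KPC libraries all above the MB49 libraries, as did 34.3% of all genes after 8 Gy and 33.3% in controls.

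The order of the 4 groups differed from gene to gene. Cxcl9 ran from MB49 control through KPC control and MB49 8 Gy to KPC 8 Gy, and so did Ccl5, with no overlap between neighbours in either order. For Cxcl10 the 2 control groups lay together at the bottom, below MB49 8 Gy and KPC 8 Gy. For Cxcl11 the 2 irradiated groups lay together at the top, above KPC control and then MB49 control. For Cxcl16 the 2 MB49 groups lay together at the bottom, below KPC control and KPC 8 Gy. As a share of all counts in a library, the 5 genes took 0.281 to 0.331% in KPC 8 Gy against 0.00766 to 0.0094% in KPC control, and 0.0539 to 0.066% in MB49 8 Gy against 0.00254 to 0.00292% in MB49 control.

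The make-up of the set changed along with its size, as the levels per length show. RPKM here is the scaled CPM divided by the deposited gene length in kilobases, and levels of different genes are compared on this scale. The summed RPKM of the 5 genes was 2318 ± 58.6 in KPC 8 Gy against 77.1 ± 14.0 in KPC control, and 536 ± 25.0 in MB49 8 Gy against 22.1 ± 1.08 in MB49 control (SD, n = 3 each). In KPC, Ccl5 made up 24.3 ± 1.55% of the sum after 8 Gy and 60.3 ± 2.95% in controls, Cxcl16 made up 1.97 ± 0.157% and 14.9 ± 1.93%, and Cxcl9 made up 29.6 ± 2.65% and 0.149 ± 0.0219%. KPC cells thus had Ccl5 as the leading transcript of the set before radiation and Cxcl10 after it, at 44.0 ± 1.09% of the sum after 8 Gy and 24.5 ± 1.78% in controls. In MB49, Cxcl10 led in both states, with 70.0 ± 3.01% after 8 Gy and 95.4 ± 1.30% in controls, while Ccl5 made up 19.6 ± 1.26% and 4.23 ± 1.06%. Cxcl11 stayed below 1% of the sum in each group mean. These shares were not tested beyond their spread; with 3 libraries a group the exact permutation test cannot go below p = 0.1.

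The balance of the CXCR3 ligands Cxcl9 and Cxcl10 differed between the irradiated lines. The ratio of Cxcl9 to Cxcl10 in RPKM was 0.663, 0.758 and 0.607 in the KPC 8 Gy libraries and 0.123, 0.115 and 0.194 in the MB49 8 Gy libraries. All KPC values lay above all MB49 values. Among all tested genes ordered by mean RPKM, Cxcl10 took rank 96, Cxcl9 rank 150 and Ccl5 rank 176 in KPC 8 Gy, while in MB49 8 Gy they took ranks 246, 1584 and 843. Cxcl16 took rank 1983 in KPC 8 Gy and 5221 in KPC control, and Cxcl11 took rank 9342 in KPC 8 Gy and 9286 in MB49 8 Gy.

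**Figure D3:**
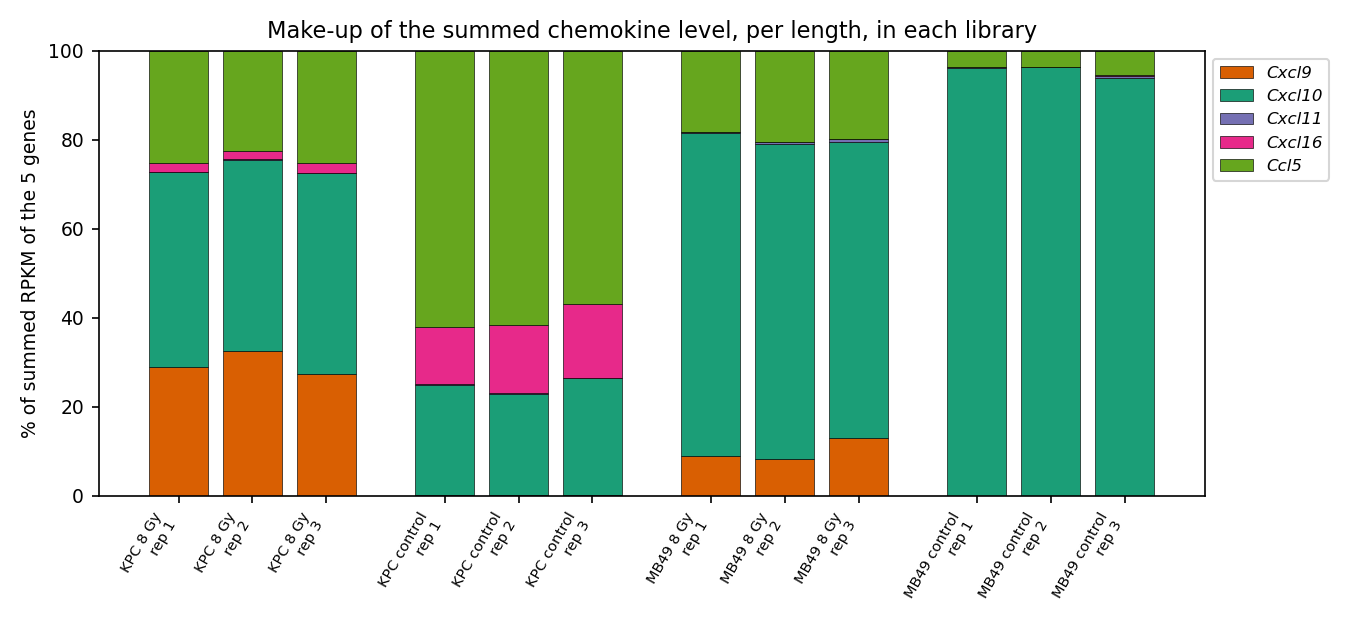
Share of each chemokine gene in the summed RPKM of the 5 genes, as stacked bars from 0 to 100% for each of the 12 libraries, grouped as KPC 8 Gy, KPC control, MB49 8 Gy and MB49 control. Cxcl10 fills most of every MB49 bar, Ccl5 is the largest part of the KPC control bars, and Cxcl9 appears as a visible part in the irradiated libraries.

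RefSeq promoter sequences were at hand for 2 of the 5 genes, Cxcl9 and Cxcl10, which stand next to each other on chromosome 5 on the minus strand. They are shown because this neighbouring pair shared the rise but not its size or baseline. Each is the 250 bases before the annotated start in build GRCm38.p6, another build than the GRCm39 of the deposited table, at chr5:92328080-92328329 for Cxcl9 and chr5:92348890-92349139 for Cxcl10. Capitals mark matches, on either strand, to a motif of interferon-stimulated response elements (ISRE, read as GAAA, any 2 bases and GAAA) and to a pair of NF-kB motifs (GGG, any 3 bases and TTCC, or the shorter GGGNNTTCC).
Cxcl9: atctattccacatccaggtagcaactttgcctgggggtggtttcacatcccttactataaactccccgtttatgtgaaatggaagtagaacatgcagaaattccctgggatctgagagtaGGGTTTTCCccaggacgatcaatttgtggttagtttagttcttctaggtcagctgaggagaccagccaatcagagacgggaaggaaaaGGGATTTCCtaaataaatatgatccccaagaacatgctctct
Cxcl10: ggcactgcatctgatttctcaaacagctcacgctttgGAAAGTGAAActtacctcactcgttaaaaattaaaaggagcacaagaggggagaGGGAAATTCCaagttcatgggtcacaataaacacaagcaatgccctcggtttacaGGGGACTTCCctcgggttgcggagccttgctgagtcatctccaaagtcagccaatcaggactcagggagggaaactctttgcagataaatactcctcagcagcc

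The Cxcl10 window held 1 ISRE match, GAAAGTGAAA, 213 to 204 bases before the start, and such a match was present in 2.98% of 32851 promoter windows of the same length. It also held GGGAAATTCC, 159 to 150 bases before the start, and GGGGACTTCC, 104 to 95 bases before it, both matches to the longer NF-kB motif, which 4.65% of windows held. The second of these overlaps a match to the shorter motif. The Cxcl9 window held 2 matches to the shorter NF-kB motif, GGGTTTTCC and GGGATTTCC, 130 to 122 and 42 to 34 bases before the start, and 4.98% of windows held one. Neither window held the letters TTCNNNGAA of an interferon gamma activated site, which 7.02% of windows held, and the Cxcl9 window held no ISRE match. A match describes these letters only; binding was not measured.

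Genes around the members were looked up in the GENCODE M21 annotation after the members' values were seen. Of 6 tested neighbours that are no members, 3 were called higher in KPC and the same 3 in MB49: Zmynd15, described above, and the Ccl5 neighbours Heatr9 and Ccl9. Among all genes 31.3% were called higher in KPC and 35.3% in MB49, and the share called higher in both lines was not counted. Med11, a Mediator subunit gene next to Cxcl16, was called lower in KPC (-0.35 ± 0.14, adjusted p = 0.0351) and did not pass in MB49 (0.04 ± 0.13, adjusted p = 0.8). Sdad1, a nucleolar protein gene next to Cxcl9, stood at 15.9 ± 1.51 CPM in KPC 8 Gy and 29.5 ± 2.56 CPM in KPC control, and it fell in both lines (-0.89 ± 0.15 in KPC and -1.45 ± 0.15 in MB49, adjusted p = 5.55e-05 and 1.51e-07). Nup54, a nuclear pore gene on the far side of Cxcl11, did not pass the test in KPC (-0.16 ± 0.12, adjusted p = 0.283) and fell in MB49 (-1.15 ± 0.12, adjusted p = 3.05e-07). Art3, which overlaps Cxcl10 and Cxcl11 on the opposite strand, had 9 counts in KPC 8 Gy, 0 in KPC control, 13 in MB49 8 Gy and 8 in MB49 control. Beside Ccl5, Heatr9 rose in both lines (3.63 ± 0.42 in KPC and 4.24 ± 0.60 in MB49, adjusted p = 8.11e-07 and 8.19e-06), with 175 counts in KPC 8 Gy against 17 in KPC control, and 49 counts in MB49 8 Gy against 3 in MB49 control. The chemokine gene Ccl9, on the other side of Ccl5, rose by 4.66 ± 0.26 in KPC and 0.58 ± 0.12 in MB49 (adjusted p = 7.26e-11 and 0.000519).

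The receptor genes Cxcr3 and Cxcr6 were scarcely transcribed in either line. Cxcr3 had 1 count in KPC 8 Gy, 0 in KPC control, 8 in MB49 8 Gy and 0 in MB49 control. Cxcr6 had 0 counts in both KPC groups, 6 counts in MB49 8 Gy and 3 in MB49 control, all of the latter in replicate 3. Of 7 receptors and scavengers listed, 2 had enough counts for the test. Ackr3, the scavenger receptor gene for CXCL11 and CXCL12, stood at 110 ± 5.01 CPM in KPC 8 Gy and 108 ± 21.0 CPM in KPC control (0.02 ± 0.14, adjusted p = 0.927). In MB49 it fell to 41.5 ± 4.88 CPM after 8 Gy, against 232 ± 30.9 CPM in controls (-2.49 ± 0.15, adjusted p = 2.33e-10), and the difference of responses was 2.51 ± 0.21 (adjusted p = 8.54e-08). Ackr1, a chemokine scavenger gene of endothelium and red cells, had 0 counts in KPC, and in MB49 it fell to 132 counts after 8 Gy, against 309 in controls (-0.83 ± 0.26, adjusted p = 0.0131).

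Other chemokines that draw lymphocytes did not all follow the 5 genes. Of 14 listed, 7 had enough counts. In KPC 1 of the 7 rose and 0 fell (median -0.30), where 31.3% of all genes were called higher and 32.0% lower. That KPC count and median include genes with too few counts there for a change to be found. Ccl3 had 0 counts, Ccl17 had 1 after 8 Gy and 0 in controls, and Ccl20 had 3 and 6. Ccl4, which missed the filter, had 52 counts in KPC 8 Gy and 11 in KPC control, with no overlap of libraries. In MB49 3 rose and 2 fell (median 0.39), shares near the 35.3% higher and 31.6% lower of all genes. Cx3cl1, the gene of the membrane-bound chemokine fractalkine, was the member that rose in both lines, to 65.5 ± 5.82 CPM in KPC 8 Gy, against 44.3 ± 4.47 CPM in KPC control (0.56 ± 0.16, adjusted p = 0.00603), and to 84.9 ± 18.4 CPM in MB49 8 Gy, against 41.4 ± 7.87 CPM in MB49 control (1.03 ± 0.16, adjusted p = 2.70e-05). Ccl3, another CC chemokine gene, had 0 counts in KPC and rose in MB49, with 96 counts after 8 Gy against 9 in controls (3.72 ± 0.67, adjusted p = 0.000257). Ccl17, which draws cells with the receptor CCR4, rose in MB49 with 115 counts against 15 (3.31 ± 0.46, adjusted p = 1.27e-05). Ccl20, which draws cells with the receptor CCR6, fell in MB49 to 4 counts after 8 Gy, against 463 counts in controls (-6.37 ± 0.46, adjusted p = 2.25e-09). Ccl28, a mucosal chemokine gene, had 0 counts in MB49 8 Gy and 10 in MB49 control and was called lower (adjusted p = 0.0282). Its MB49 control libraries ran from 0 to 0.347 CPM, the highest being replicate 3, so the groups overlapped. The call was not refitted without that library. In KPC Ccl28 had 31 counts after 8 Gy and 80 in controls (adjusted p = 0.112). Cxcl12 had 22 counts in MB49 controls, all in replicate 3, the library with many genes of its own, and 0 in the other 3 groups.

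Chemokines for neutrophils and monocytes, the most similar set by function, mostly rose in KPC. Of 12 listed, 8 were tested: 7 rose and 0 fell in KPC (median 2.13), where 31.3% of all genes rose and 32.0% fell. In MB49 3 rose and 3 fell (median 0.04), shares near the 35.3% and 31.6% of all genes. For 7 of the 8 the response was higher in KPC than in MB49, where 20.9% of all genes were, against 1 of the 5 T cell chemokines. In level, 7 of the 8 were lower in KPC than in MB49 after 8 Gy (4793 of all 14362 genes). The same number were lower in KPC between controls (4937 of all genes). Ccl2, the main monocyte chemokine gene, rose to 2.85 CPM (174 counts) in KPC 8 Gy, against 0.109 CPM (8 counts) in KPC control (4.68 ± 0.43, adjusted p = 6.04e-08). In MB49 it fell to 112 ± 19.5 CPM after 8 Gy, against 223 ± 49.1 CPM in controls (-0.99 ± 0.18, adjusted p = 0.000105). The neutrophil chemokine gene Cxcl2 rose by 1.44 ± 0.14 in KPC and fell by 0.44 on the log2 scale in MB49 (adjusted p = 1.30e-07 and 0.00948). Cxcl5, another neutrophil chemokine gene, rose by 1.03 ± 0.12 in KPC and was lower in MB49 (-0.69 ± 0.26, adjusted p = 1.06e-06 and 0.0269). The monocyte chemokine gene Ccl7 rose in KPC, with 98 counts after 8 Gy and 0 in controls (adjusted p = 2.71e-07), and by 0.91 ± 0.20 in MB49 (adjusted p = 0.00102). Ccl8 rose in MB49, with 369 counts after 8 Gy against 4 in controls (6.75 ± 0.51, adjusted p = 1.37e-08), and had 2 counts after 8 Gy and 0 in controls in KPC.

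**Figure D4:**
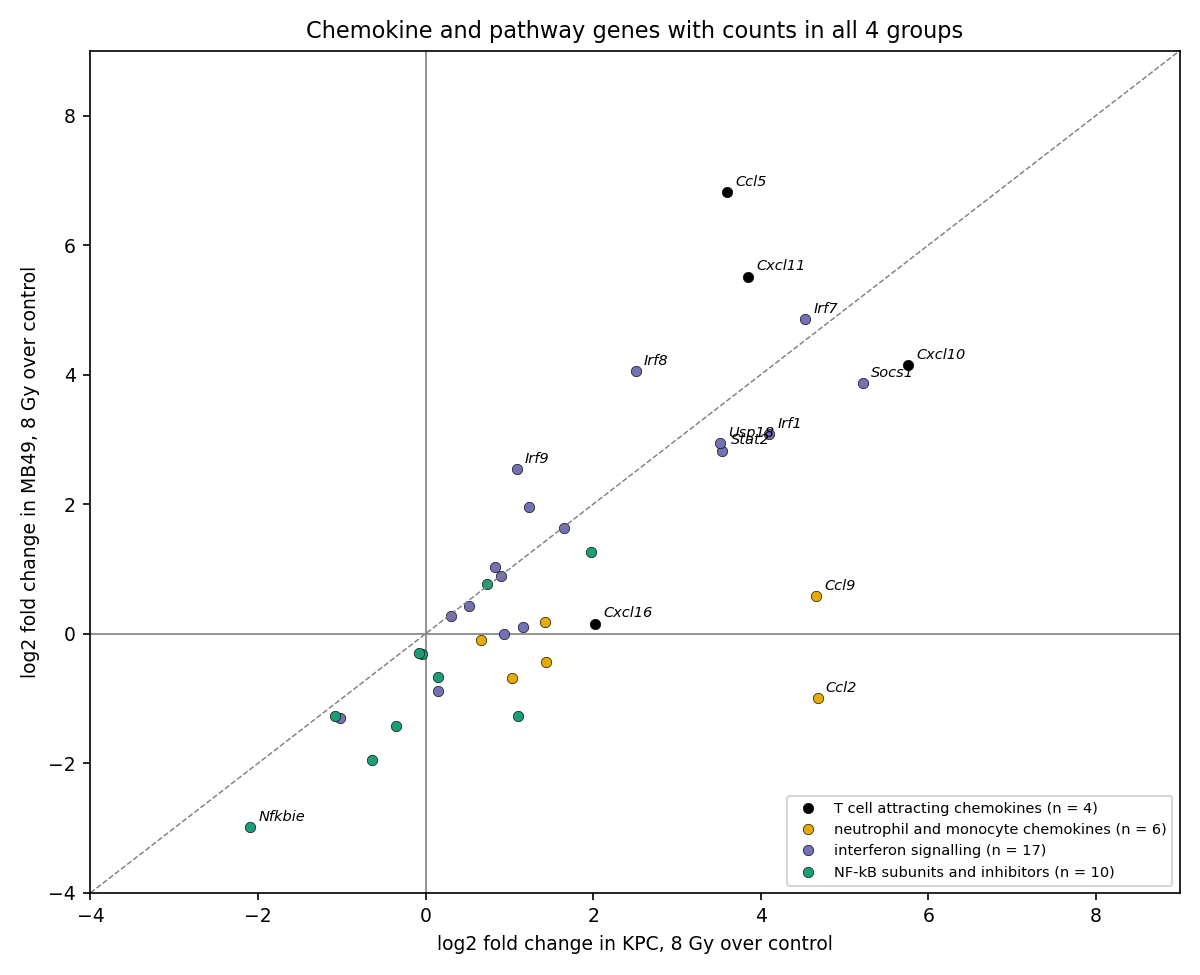
Log2 fold change, 8 Gy over control, in KPC (x axis) and MB49 (y axis) for tested genes with counts in all 4 groups: 4 T cell attracting chemokines, 6 neutrophil and monocyte chemokines, 17 interferon signalling genes and 10 NF-kB subunits and inhibitors. The dashed line marks equal change in both lines. Ccl5 and Cxcl11 lie above the line and Cxcl10 below it, near Socs1, while the 6 neutrophil and monocyte chemokines all lie below it.

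Transcripts of interferons themselves were barely seen. Of 9 interferon genes listed, none had enough counts for the test: Ifng had no count in any library. Ifnb1, a type I interferon gene, had 10 counts in KPC 8 Gy, 1 in KPC control, 1 in MB49 8 Gy and 0 in MB49 control. Of 17 listed genes that carry the interferon signal, all were tested. In KPC 15 rose and 1 fell (median 1.17), where 31.3% of all genes rose, and in MB49 12 rose and 2 fell (median 1.63), where 35.3% of all genes rose. Irf1, an interferon gamma induced transcription factor gene, rose by 4.10 ± 0.13 in KPC and 3.09 ± 0.12 in MB49, and Irf7, the factor that amplifies type I interferon, by 4.53 ± 0.16 and 4.86 ± 0.19 (adjusted p at most 1.57e-12 for the 4 values). The feedback inhibitor gene Socs1 rose by 5.22 ± 0.31 in KPC and 3.87 ± 0.28 in MB49 (adjusted p = 8.11e-09 and 4.91e-08). Irf3, the factor downstream of nucleic acid sensors, fell in both lines (-1.02 ± 0.14 in KPC and -1.30 ± 0.14 in MB49, adjusted p = 7.91e-06 and 4.68e-07). Ifngr1, a receptor chain gene for interferon gamma, did not pass in KPC (0.14 ± 0.10, adjusted p = 0.232) and fell in MB49 (-0.88 ± 0.10, adjusted p = 7.12e-07). The response was higher in KPC than in MB49 for 6 of the 17 genes, lower for 3 and not called for 8, Irf7 among the last (all genes: 20.9% higher and 22.0% lower). Irf1 and Socs1 were among the higher (differences of 1.01 ± 0.16 and 1.35 ± 0.39, adjusted p = 0.000115 and 0.0134). Irf8 and Irf9 were among the lower (-1.54 ± 0.37 and -1.45 ± 0.17, adjusted p = 0.00304 and 3.80e-06).

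Of 10 NF-kB subunits and inhibitors, 3 rose and 4 fell in KPC (median -0.06), and 2 rose and 6 fell in MB49 (median -0.96). The KPC counts lie near the 31.3% higher and 32.0% lower of all genes, and in MB49 35.3% of all genes rose and 31.6% fell. Rela, the main activating subunit gene, fell in both lines, to 163 ± 8.69 CPM in KPC 8 Gy, against 253 ± 18.1 CPM in KPC control (-0.64 ± 0.15, adjusted p = 0.00115), and to 143 ± 31.4 CPM in MB49 8 Gy, against 555 ± 60.6 CPM in MB49 control (-1.95 ± 0.15, adjusted p = 5.54e-09). Nfkbiz, a nuclear cofactor gene of NF-kB, rose in both (1.97 ± 0.12 in KPC and 1.26 ± 0.12 in MB49, adjusted p = 2.65e-10 and 4.80e-08). Nfkbia, the classical inhibitor gene, rose in both too (0.73 ± 0.13 in KPC and 0.77 ± 0.13 in MB49, adjusted p = 9.32e-05 and 4.98e-05). The inhibitor gene Nfkbie fell by 2.09 on the log2 scale in KPC and by 2.98 in MB49, and the subunit gene Nfkb1 by 0.35 and 1.43 (adjusted p at most 0.00923 for the 4 values). Tnfaip3, the feedback inhibitor A20, rose in KPC (1.10 ± 0.13, adjusted p = 1.22e-06) and fell in MB49 (-1.26 ± 0.13, adjusted p = 1.65e-07), a difference of 2.37 ± 0.18 (adjusted p = 4.60e-08).

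Genes that act on chemokines after transcription or on their mRNA gave a mixed picture. Of 11 listed, 10 were tested, 5 rose and 2 fell in KPC (median 0.37), and 5 rose and 3 fell in MB49 (median 0.44). Among all genes 31.3% rose and 32.0% fell in KPC, and 35.3% rose and 31.6% fell in MB49. Dpp4, whose product trims and inactivates CXCR3 ligands, had 0 counts except for 3 in MB49 controls, all in replicate 3. Adam10, a sheddase of CXCL16, rose in both lines (0.47 ± 0.15 in KPC and 0.86 ± 0.15 in MB49, adjusted p = 0.0115 and 6.25e-05), while Adam17, another sheddase, did not pass in either (-0.22 ± 0.14 and 0.11 ± 0.14, adjusted p = 0.185 and 0.505). The aminopeptidase gene Anpep rose by 2.59 ± 0.34 in KPC and 2.90 ± 0.18 in MB49, and the gelatinase gene Mmp9 by 1.63 ± 0.33 and 1.96 ± 0.16 (adjusted p at most 0.000318 for the 4 values). Zfp36, whose product destabilises cytokine mRNAs, rose by 2.35 ± 0.14 in KPC and 0.90 ± 0.13 in MB49 (adjusted p = 1.97e-10 and 1.13e-05). Its relative Zfp36l2 did not pass in KPC (0.27 ± 0.13, adjusted p = 0.0673) and fell in MB49 (-1.75 ± 0.13, adjusted p = 2.71e-09), and Zfp36l1 fell in both lines (-0.39 ± 0.12 and -0.30 ± 0.12, adjusted p = 0.00937 and 0.0372). The convertase gene Furin fell as well (-0.48 ± 0.19 in KPC and -1.22 ± 0.19 in MB49, adjusted p = 0.0339 and 2.41e-05).

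The genes most like each member were found by the root mean square difference of mean-centred log2(CPM + 0.5) profiles over the 12 libraries, among 10522 genes with at least 5 CPM in some group. All 12 libraries share the 4 groups, so the measure mainly reflects the group means. The added 0.5 CPM compresses genes near 0 in controls, so a near gene can still differ in its fold change. Nearest to Cxcl10 were the peptide transporter gene Slc15a3 (0.27), Mndal (0.32) and Ifi203 (0.32), the last 2 of the interferon-inducible p200 family. Slc15a3 changed by 8.25 in KPC and 5.66 in MB49, against 5.76 and 4.15 for Cxcl10. Mndal (5.33 and 4.45) and Ifi203 (5.46 and 4.87) lay closer in both lines. Nearest to Cxcl11 were the zinc transporter gene Slc39a4 (0.29), Tmt1a (0.31) and Parp9 (0.34), and nearest to Ccl5 were Xaf1 (0.48), Oasl2 (0.63) and the GTPase gene Ifi47 (0.66). Cxcl9 had no close match: Gbp2, a guanylate-binding protein gene, was first at 1.08, before the complement gene C4b (1.19) and the transcription factor gene Batf2 (1.26). Nearest to Cxcl16 were the transporter gene Abcc3 (0.23), the kinase gene Itpkb (0.28) and Ndrg2 (0.31), each with at most 19 counts in an MB49 group. Among the members themselves the closest pair was Cxcl10 and Cxcl11 (1.05) and the farthest Cxcl9 and Cxcl16 (4.91). Even in the closest pair the differences of responses had opposite signs (1.61 for Cxcl10 and -1.66 for Cxcl11).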

How the data were processed

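RNA was extracted with TRIzol and libraries were made with a stranded mRNA kit, per the labels' protocols. The submitters' processing notes name fastp, HISAT2, StringTie and GRCm39, with no versions; the read counter and its strand setting are not given in the sources used here. Deposited by the authors were unscaled estimated counts for each gene, of which 6.20 to 8.65% per library were not whole; they were rounded. Their 4 group means were not used. The deposited table has gene length as another column, used for RPKM. Groups came from the sample titles.

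Genes passed edgeR's filterByExpr by group (14362 kept, 42818 removed; 525 rows had no symbol), with TMM factors of 0.829 to 1.18. All 12 libraries entered 1 robust quasi-likelihood fit with a term for each group (8 residual degrees of freedom, biological coefficient of variation 0.150). Tests were 2-sided over 5 comparisons. An SE is the log2 change divided by the root of its F statistic. Total counts limit precision, and counting intervals cover counting error only. The fit was tested on simulated data. Members and lists were chosen with earlier results of these data known. Named were all members, the list genes that changed most (up to 3 per list and direction, with at least 1 CPM in some group) or define a list, and the 3 most alike genes per member. Some listed genes are not reported here. Irf1, Irf8, Irf9, Adam10 and Adam17 were added after their values were seen. Software was R 4.3.3 with DESeq2 1.42.0, edgeR 4.0.16 and limma 3.58.1. Alternatives were RLE factors, library totals, no filter, DESeq2, the 6 compared libraries alone, the replicate block and leaving out each library.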

Additional observations from a re-analysis of the deposited data

Results flagged for a closer look

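The 8 Gy response differed between the lines by its own test for 3 of the 5 chemokine genes, 1 higher and 2 lower in KPC, where 20.9% of all genes were called higher and 22.0% lower. For Cxcl10 the KPC minus MB49 difference was 1.61 (adjusted p = 2.85e-06), with changes of 5.76 in KPC and 4.15 in MB49. For Cxcl11 it was -1.66 (adjusted p = 0.00981) and for Ccl5 -3.23 (adjusted p = 1.09e-07). Both of these genes had more counts in the KPC controls than in the MB49 controls, 36 against 13 for Cxcl11 and 1866 against 38 for Ccl5. For all 3 genes the edgeR test was passed in the KPC and in the MB49 comparison too, and the 3 irradiated libraries of a line lay above its 3 controls.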

How the results depend on the processing

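Over 25 changes (5 genes in 5 comparisons) and up to 18 other settings each, 433 of 443 values kept their direction and side of the threshold, 6 gained a call, 4 turned sign and 0 lost a call. The sign turned where the value had not passed and counts were few or groups overlapped. For Cxcl16 in MB49 it was -0.12 with library totals only, and -0.32 to 0.81 when single libraries were left out. For Cxcl11 between irradiated lines it was -0.29 to 0.032 when single libraries were left out, positive without MB49 8 Gy replicate 3. Calls were gained for the difference of Cxcl16 responses with RLE factors (1.92, adjusted p = 0.0467), with DESeq2 (1.92, adjusted p = 0.0450) and within 1.20 to 2.34 when single libraries were left out. The Cxcl10 difference between controls ran from -0.36 to -0.087 when single libraries were left out, and was called without KPC control replicate 1. The causes were not tested. Scaling by library totals moved the median change of all genes to -0.39 in KPC and -0.23 in MB49 (-0.01 and 0.04 with TMM), and the genes called became 3085 higher and 6621 lower in KPC (4490 and 4596 with TMM) and 3819 higher and 5850 lower in MB49 (5066 and 4540 with TMM), while 5 and 4 of the chemokine genes were again called. Fits to the 6 compared libraries alone gave no value for Cxcl16 in MB49 or Cxcl9 between controls, where the gene missed the filter. Same-numbered libraries did not deviate together (r of -0.33 to 0.31 in MB49 and -0.19 to 0.03 in KPC), so the numbers are not taken as pairs; with the replicate block Cxcl10 changed by 5.76 in KPC and 4.15 in MB49, and 4309 genes were higher and 4414 lower in KPC. Depth limits Cxcl16 in MB49 and the control levels of Cxcl9 and Cxcl11.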
